A study of Homo sapiens with 35 samples.

Results

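The nuclear factor I family comprises NFIA, NFIB, NFIC and NFIX, and all 4 genes were measured among 18404 genes that had a row with 1 gene symbol. The family was chosen because NFIB was far lower in cells carrying a CDK8 hairpin, so the NFIB values in that line are given as a description with no test, whereas NFIA, NFIC and NFIX entered by family name and were tested. Where a gene had several rows, the one of highest mean signal across the 35 arrays was used. The arrays held total RNA of HCT116, an established human colorectal carcinoma line, and every group carried a short hairpin RNA: shControl (a non-target hairpin), shCDK8 or shCDK19, with 1 line per hairpin. CDK8 and CDK19 are the alternative kinases of the Mediator kinase module. Each line was measured without treatment in normal growth (3 arrays each), after 12 hours of 5-fluorouracil, a fluoropyrimidine drug written 5FU here (2 arrays each), after 24 hours in low-glucose medium (3 arrays each) and after 24 hours of hypoxia in 1% oxygen (2 arrays each). The shControl line alone was also measured with DMSO, the drug's vehicle (2 arrays), and in high-glucose medium (3 arrays), which makes 14 groups. Nothing in the labels says that arrays of a group came from separate cultures, so each p-value rests on array-to-array spread that could be technical. The labels list normal growth, 5FU with DMSO, the glucose media and hypoxia as separate entries, here called experiments.

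Nuclear factor I proteins are transcription factors that share a conserved DNA-binding domain, bind DNA as homodimers or heterodimers, and recognise a palindrome whose arms read TTGGC and GCCAA; a single arm can be bound with lower affinity. They are best known for switching neural progenitors to glial fates, for lung maturation and for hair follicle and muscle development, and they often act by keeping chromatin accessible at enhancers. Because the members bind the same sequence, loss of one is commonly examined together with the levels of the others.

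All values are deposited log2 signals, with a lowest value of 4.32, and differences are log2 differences with their standard error (SE) from limma. Genes were called at a Benjamini-Hochberg adjusted p under 0.05 over all 18404 genes. The hairpins were checked first: the row annotated to both CDK8 and ADRA1B differed between shCDK8 and shControl by -2.26 ± 0.10 (SE) over the mean of 4 conditions, and CDK19 in shCDK19 by -1.31 ± 0.06 (SE). Arrays of a group correlated over all rows at 0.976 to 0.998, and the lowest value belonged to the 2 shControl hypoxia arrays. The shCDK8 array of normal growth numbered 1 also stood apart, at 0.987 and 0.989 with the others of its group. Where leaving out 1 of these 3 arrays changed a tested member's call, the value without it is given beside the result. Of the epithelial markers KRT8, KRT18, EPCAM and CDH1 had medians of 11.27 to 13.11, whereas the intestinal markers CDH17 and VIL1 were low, at medians of 4.99 and 6.41. Of the markers of other cell types, medians ran from 4.37 to 6.57 for 3 leukocyte genes, from 4.32 to 8.67 for 3 fibroblast genes and from 5.48 to 6.4 for 3 endothelial genes. PTPRC and LUM lay at or near the lowest value and COL1A1 was the highest, and the part of such cells in the results was not tested. In bulk RNA, fewer cells expressing a gene and less RNA per cell cannot be told apart.

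The RefSeq promoter table (GRCh38.p14; 250 bases before to 50 after a start) listed 3 starts for NFIA, 10 for NFIB, 1 for NFIC and 5 for NFIX. The family's own arm motif, TTGGC read on either strand, was found in 1, 6, 0 and 2 of these windows, against 45.6% of all 35116 promoters, and the full palindrome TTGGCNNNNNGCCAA was found in none of them, against 0.0285% of all promoters. Both NFIX windows with a match overlap. A match is a description of letters and not a measured binding site. For each of the 3 members whose level differed in the shCDK8 line, 1 window holding the arm motif is shown, with the motif in capitals, read 5′ to 3′ on the gene's strand. They are NFIB at chr9:14300215-14300514 on the minus strand, NFIA at chr1:61076977-61077276 on the plus strand and NFIX at chr19:13024329-13024628 on the plus strand.
NFIB: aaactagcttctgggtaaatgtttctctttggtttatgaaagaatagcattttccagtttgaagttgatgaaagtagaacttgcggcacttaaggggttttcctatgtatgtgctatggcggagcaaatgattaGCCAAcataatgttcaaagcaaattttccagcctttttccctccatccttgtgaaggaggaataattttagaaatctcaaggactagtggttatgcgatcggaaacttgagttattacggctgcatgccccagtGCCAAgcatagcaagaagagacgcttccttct
NFIA: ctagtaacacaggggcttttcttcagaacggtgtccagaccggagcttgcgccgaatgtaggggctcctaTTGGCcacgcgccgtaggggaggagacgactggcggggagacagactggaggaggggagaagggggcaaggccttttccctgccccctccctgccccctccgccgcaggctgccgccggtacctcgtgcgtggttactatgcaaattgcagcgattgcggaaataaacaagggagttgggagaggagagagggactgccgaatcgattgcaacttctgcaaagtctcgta
NFIX: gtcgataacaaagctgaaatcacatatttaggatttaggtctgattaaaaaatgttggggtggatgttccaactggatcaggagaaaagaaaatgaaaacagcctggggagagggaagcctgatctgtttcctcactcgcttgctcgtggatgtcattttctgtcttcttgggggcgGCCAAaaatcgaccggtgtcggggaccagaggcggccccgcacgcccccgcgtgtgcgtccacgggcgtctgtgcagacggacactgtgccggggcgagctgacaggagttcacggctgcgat

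NFIB was the member with the widest range, and its level separated the shCDK8 line from both other lines under every condition. In normal growth NFIB read 8.63, 8.65 and 8.74 in shControl, 5.90, 5.90 and 5.83 in shCDK8, and 8.86, 8.84 and 8.69 in shCDK19. Under 5FU it read 8.67 and 8.51 in shControl, 5.82 and 6.01 in shCDK8, and 9.84 and 9.90 in shCDK19. The shCDK8 arrays were the low ones in both experiments and overlapped with no array of the other lines, and under 5FU the shCDK19 arrays were the high ones. In low glucose NFIB read 9.03, 8.90 and 8.998 in shControl, 6.26, 6.22 and 6.24 in shCDK8, and 8.996, 9.01 and 8.66 in shCDK19. In hypoxia it read 8.24 and 8.68 in shControl, 6.21 and 6.04 in shCDK8, and 8.83 and 8.83 in shCDK19. Again the shCDK8 arrays alone were low, while the arrays of the other lines overlapped in low glucose and did not overlap in hypoxia. In the groups measured in shControl alone, NFIB was 8.74 and 8.82 with DMSO and 9.12, 9.12 and 9.13 in high glucose.

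Over all 10 shCDK8 arrays NFIB lay between 5.82 and 6.26, and over the 25 other arrays between 8.24 and 9.90. The shCDK8 values were above the lowest value of the scale and placed NFIB at or above 28.9% to 36.5% of all rows of an array, and how much of that signal is probe background was not tested. The difference from shControl was -2.79 ± 0.06 (SE) in normal growth, -2.68 ± 0.09 under 5FU, -2.74 ± 0.08 in low glucose and -2.33 ± 0.17 in hypoxia, which correspond to 6.94-fold, 6.39-fold, 6.66-fold and 5.04-fold lower signals. Averaged over the 4 conditions it was -2.63 ± 0.05 (SE), 6.21-fold lower. These are the values the gene was chosen on. By size of this mean difference NFIB ranked 13 among 18404 genes, in a comparison that called 35.1% of all genes.

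**Figure D1:**
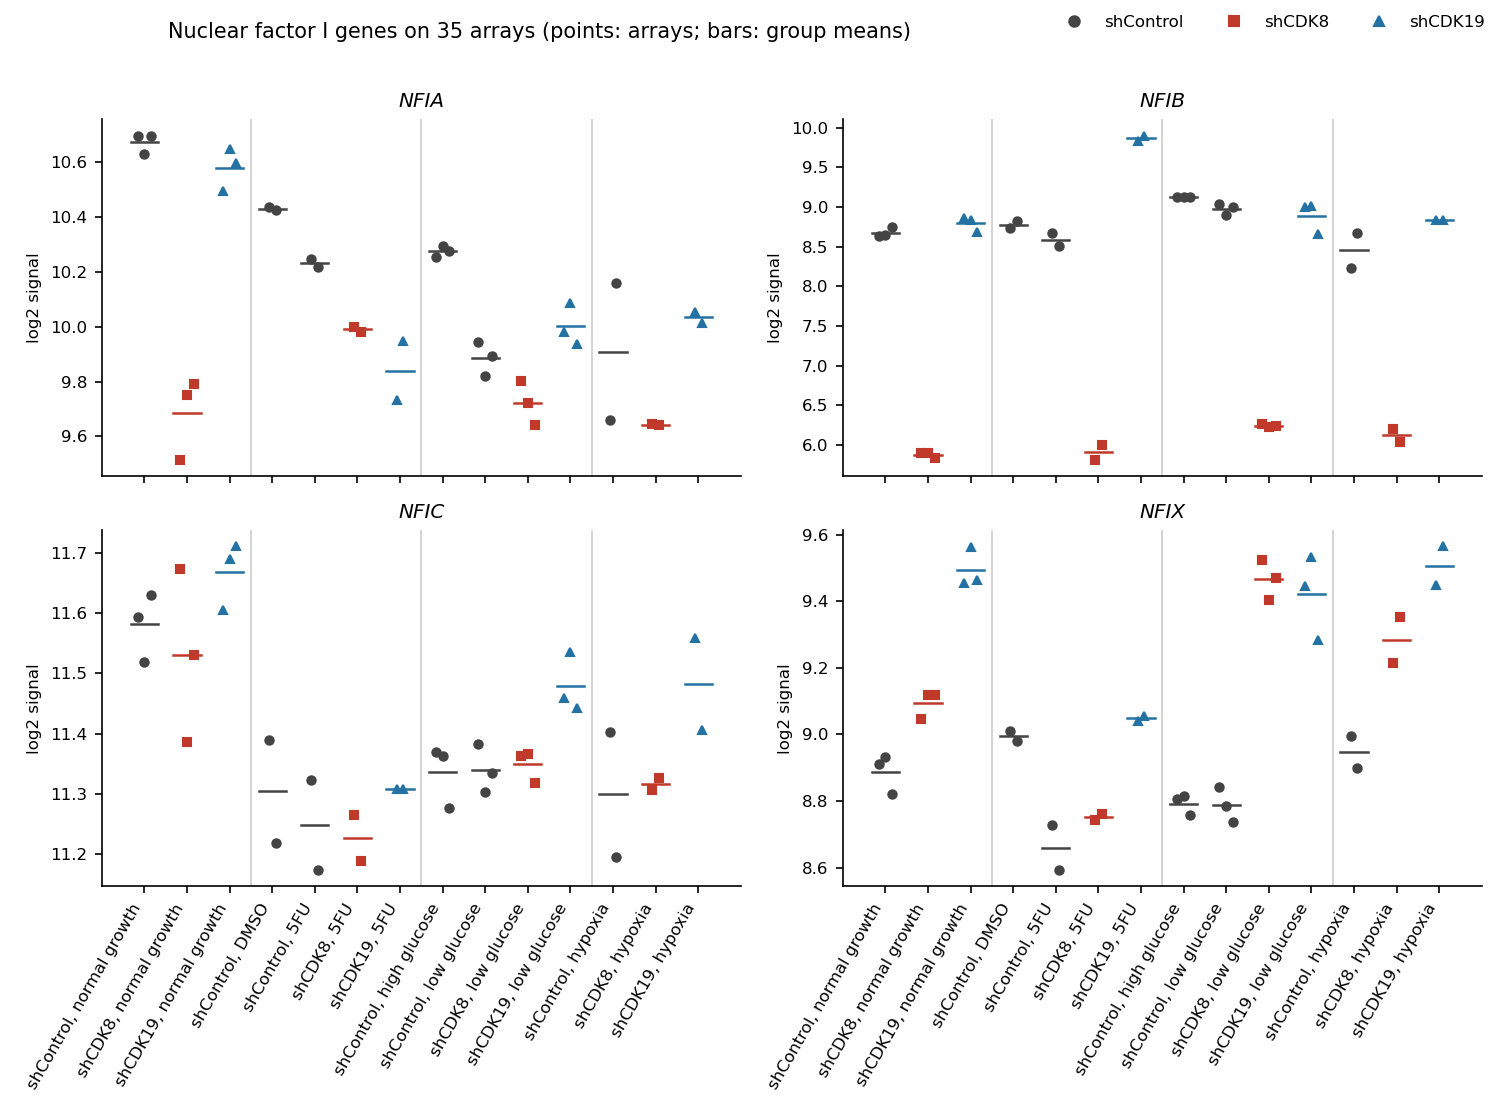
Log2 signal of the 4 nuclear factor I genes on each of 35 arrays (points) with group means (bars), in the order of the 14 groups, with grey lines between experiments; the vertical scales differ between panels. The 10 shCDK8 arrays of NFIB lie between 5.82 and 6.26 and the other 25 between 8.24 and 9.90, whereas NFIC stays between 11.17 and 11.71 on all arrays.

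In the shCDK19 line, which had no part in the choice of the gene, NFIB was not lower than in shControl in a way that passed the test. It was higher under 5FU, by 1.28 ± 0.09 (SE; 2.43-fold; adjusted p = 0.0131, limma), a comparison in which 0.837% of genes were called. Both shCDK19 arrays, at 9.84 and 9.90, were above every other NFIB value in the series. The call was lost with the ordinary variance in place of limma's moderated one (adjusted p = 0.0771) and when any 1 of the 4 arrays was left out (adjusted p from 0.0913 to 0.164), with the difference staying between 1.197 and 1.36. No shCDK19 array with DMSO was analysed here, so the drug's effect within that line could not be measured. In the other conditions the difference was 0.12 ± 0.06 in normal growth (adjusted p = 0.325; 7.07% of genes called), -0.09 ± 0.08 in low glucose (adjusted p = 0.522; 19.9%) and 0.38 ± 0.17 in hypoxia (adjusted p = 0.422; 0.228%). The hypoxia value passed the test in 1 fit of all 35 arrays (adjusted p = 0.0220) and, at 0.60, without shControl hypoxia replicate 2 (adjusted p = 0.0356). The mean over 4 conditions was 0.42 ± 0.05 (SE; adjusted p = 5.83e-07; 20.2% of genes called). Without the 5FU condition it was 0.14 ± 0.06 (adjusted p = 0.0868).

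Ordered by group mean, NFIB was highest in shCDK19 under 5FU at 9.87 ± 0.04 (SD, n = 2), followed by shControl in high glucose at 9.12 ± 0.01 (SD, n = 3) and in low glucose at 8.98 ± 0.07 (SD, n = 3). The next groups ran from shCDK19 in low glucose at 8.89 ± 0.20 down to shControl in hypoxia at 8.46 ± 0.31, and each overlapped with its neighbour in the order. A gap of 2.22 then separated shControl in hypoxia from shCDK8 in low glucose at 6.24 ± 0.02. The remaining shCDK8 groups followed at 6.12 ± 0.12 in hypoxia, 5.91 ± 0.13 under 5FU and 5.88 ± 0.04 in normal growth, and the last 2 overlapped.

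NFIA, the member best known for starting gliogenesis, was lower in shCDK8 cells in normal growth. Its values there were 10.70, 10.63 and 10.70 in shControl, 9.52, 9.75 and 9.79 in shCDK8, and 10.49, 10.65 and 10.60 in shCDK19. The shCDK8 arrays lay below all others, and the other lines overlapped. The difference from shControl was -0.99 ± 0.08 (SE; 1.98-fold; adjusted p = 9.9e-05, limma; 24.9% of genes called), and from shCDK19 it was -0.90 ± 0.08 (adjusted p = 0.000172; 26.1% of genes called). With any 1 of the arrays left out, shCDK8 replicate 1 included, the difference from shControl stayed between -1.04 and -0.90.

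Outside normal growth the lines lay closer together. Under 5FU NFIA read 10.25 and 10.22 in shControl, 10.00 and 9.98 in shCDK8, and 9.73 and 9.95 in shCDK19. In low glucose it read 9.94, 9.82 and 9.89 in shControl, 9.80, 9.72 and 9.64 in shCDK8, and 9.98, 10.09 and 9.94 in shCDK19. In hypoxia it read 9.66 and 10.16 in shControl, 9.64 and 9.64 in shCDK8, and 10.05 and 10.02 in shCDK19. The shCDK8 arrays were below the shControl arrays in each of these conditions, by a narrow margin in low glucose and hypoxia, and the pair of shControl hypoxia arrays was the widest of all NFIA groups. The shCDK8 difference was -0.24 ± 0.08 under 5FU (adjusted p = 0.190; 3.5% of genes called), -0.16 ± 0.05 in low glucose (adjusted p = 0.0569; 22.3%) and -0.27 ± 0.18 in hypoxia (adjusted p = 0.367; 7.3%), and none passed the test in limma. The low glucose value passed it under quantile normalization (adjusted p = 0.0192), with genes above the median row (adjusted p = 0.0446), with a variance trend and robust moderation (adjusted p = 0.0459) and without shCDK8 replicate 1 of that group (adjusted p = 0.0361). Without shControl hypoxia replicate 1, which is the 9.66 array, the hypoxia difference was -0.52 (adjusted p = 0.0302). In low glucose NFIA was lower in shCDK8 than in shCDK19, with a difference of -0.28 ± 0.05 (adjusted p = 0.00379; 26% of genes called). Between these lines it differed by 0.15 ± 0.08 under 5FU (adjusted p = 0.358; 5.14%) and by -0.39 ± 0.18 in hypoxia (adjusted p = 0.255; 12.4%), and the hypoxia value passed the test in 1 fit of all 35 arrays (adjusted p = 0.00527). Against shControl no NFIA difference of shCDK19 was called, with values of -0.09 in normal growth, -0.39 under 5FU (adjusted p = 0.105), 0.12 in low glucose and 0.13 in hypoxia. The 5FU value passed the test in 1 fit of all 35 arrays (adjusted p = 0.0264), with genes above the median row (adjusted p = 0.0485) and with a variance trend and robust moderation (adjusted p = 0.0305). The hypoxia value was 0.38 (adjusted p = 0.0364) without shControl hypoxia replicate 2 and -0.13 (adjusted p = 0.388) without replicate 1.

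NFIC, a broadly expressed member, was the steadiest. Its lowest, median and highest values over all arrays were 11.17, 11.37 and 11.71, and 12 of the 13 steps between groups in order of their means were steps between overlapping groups. In normal growth NFIC read 11.59, 11.52 and 11.63 in shControl, 11.67, 11.39 and 11.53 in shCDK8, and 11.60, 11.69 and 11.71 in shCDK19. Neighbouring groups overlapped. The shCDK8 difference from shCDK19 was -0.14 (adjusted p = 0.242, limma), and without shCDK8 replicate 1 it was -0.21 and passed the test (adjusted p = 0.0312). Within the 4 conditions the shCDK8 difference from shControl ran from -0.05 in normal growth to 0.02 in hypoxia, and none was called. In low glucose NFIC read 11.38, 11.30 and 11.33 in shControl, 11.36, 11.37 and 11.32 in shCDK8, and 11.46, 11.54 and 11.44 in shCDK19. The shCDK19 arrays were the high ones there, by 0.14 ± 0.04 over shControl (adjusted p = 0.0425, limma) and shCDK8 differed from shCDK19 by -0.13 ± 0.04 (adjusted p = 0.0447). Neither call held when array medians were subtracted (adjusted p = 0.302 and 0.312), under quantile normalization (0.0512 and 0.113), with genes above the median row (0.0504 and 0.0554) or in 1 fit of all arrays (0.179 and 0.182). Leaving out 1 array in turn ended the first call for 4 of 6 arrays (shControl replicates 2 and 3, shCDK19 replicates 1 and 2; adjusted p up to 0.136). It ended the second for 5 of 6 (each shCDK8 array, shCDK19 replicates 1 and 2; adjusted p up to 0.122). Under 5FU NFIC read 11.32 and 11.17 in shControl, 11.26 and 11.19 in shCDK8, and 11.31 and 11.31 in shCDK19. In hypoxia it read 11.40 and 11.19 in shControl, 11.31 and 11.33 in shCDK8, and 11.56 and 11.41 in shCDK19. The shControl range covered the shCDK8 arrays in both, and only the shCDK19 hypoxia arrays lay above it. That margin was very narrow, at 11.406 for the lower shCDK19 array against 11.403 for the upper shControl array.

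NFIX, known for its roles in fetal muscle and in hippocampal development, was higher in both knockdown lines, and shCDK19 was the higher of these in normal growth. In normal growth NFIX read 8.91, 8.93 and 8.82 in shControl, 9.05, 9.12 and 9.12 in shCDK8, and 9.46, 9.57 and 9.46 in shCDK19. The 3 lines formed 3 separate ranges. The difference from shControl was 0.21 ± 0.05 (SE; adjusted p = 0.0181, limma) in shCDK8 and 0.61 ± 0.05 (adjusted p = 0.000427) in shCDK19, and shCDK8 differed from shCDK19 by -0.40 ± 0.05 (adjusted p = 0.000865). The shCDK8 call was lost with array medians subtracted (adjusted p = 0.146) and without shControl replicate 3, shCDK8 replicate 2 or shCDK8 replicate 3 (adjusted p = 0.0669, 0.0521 and 0.0604).

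In low glucose NFIX read 8.84, 8.79 and 8.74 in shControl, 9.53, 9.40 and 9.47 in shCDK8, and 9.45, 9.53 and 9.28 in shCDK19. Both knockdown lines were above shControl and overlapped with each other. The difference was 0.68 ± 0.06 in shCDK8 (adjusted p = 3.39e-05, limma) and 0.63 ± 0.06 in shCDK19 (adjusted p = 8.39e-05), and between the knockdown lines it was 0.05 ± 0.06 (95% interval -0.09 to 0.18; adjusted p = 0.657). Under 5FU NFIX read 8.73 and 8.59 in shControl, 8.74 and 8.76 in shCDK8, and 9.04 and 9.06 in shCDK19. In hypoxia it read 8.996 and 8.90 in shControl, 9.21 and 9.35 in shCDK8, and 9.45 and 9.57 in shCDK19. Both sets had shControl lowest and shCDK19 highest with no overlap. The differences from shControl were 0.09 ± 0.06 (adjusted p = 0.555) and 0.39 ± 0.06 (adjusted p = 0.0603) under 5FU, and 0.34 ± 0.10 (adjusted p = 0.114) and 0.56 ± 0.10 (adjusted p = 0.138) in hypoxia, for shCDK8 and shCDK19 in that order. None of these was called in the fits within an experiment over all 18404 genes, and the shCDK19 value under 5FU was called when only genes above the median row were tested (adjusted p = 0.0375). In 1 fit of all 35 arrays the hypoxia differences were called in both lines (adjusted p = 0.0006 and 4.06e-06), as was the shCDK19 difference under 5FU (adjusted p = 0.000838). Within the hypoxia experiment the shCDK19 difference also passed, at 0.51, without shControl replicate 2 (adjusted p = 0.0437). NFIX in shCDK8 differed from shCDK19 by -0.30 ± 0.06 under 5FU (adjusted p = 0.0532) and by -0.22 ± 0.10 in hypoxia (adjusted p = 0.235). Both passed the test in 1 fit of all 35 arrays (adjusted p = 0.00522 and 0.0154), and the 5FU value also with genes above the median row (adjusted p = 0.0479).

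Whether other members were higher where NFIB was low was tested on the mean difference over the 4 conditions, with all 35 arrays in the fit. In shCDK8 cells, which had the low NFIB, NFIA was lower, with a difference of -0.42 ± 0.05 (95% interval -0.52 to -0.32; adjusted p = 1.74e-07, limma). Without normal growth that mean was -0.22 ± 0.06 (adjusted p = 0.00405). NFIC differed by -0.01 ± 0.04 (95% interval -0.09 to 0.06; adjusted p = 0.840). NFIX was higher by 0.33 ± 0.03 (95% interval 0.26 to 0.39; 1.26-fold; adjusted p = 9.32e-09), in a comparison with 35.1% of genes called, 18.8% higher and 16.2% lower. Without low glucose the NFIX mean was 0.21 ± 0.04 (adjusted p = 9.58e-05). In shCDK19 cells, which did not have low NFIB, NFIX was higher by 0.55 ± 0.03 (95% interval 0.48 to 0.61; 1.46-fold; adjusted p = 2.53e-12), where 10.4% of genes were called higher and 9.73% lower. NFIC in shCDK19 was 0.12 ± 0.04 higher (adjusted p = 0.0236), a call that did not hold under quantile normalization (adjusted p = 0.202) or without shControl 5FU replicate 2, shControl hypoxia replicate 2 or shCDK19 hypoxia replicate 1 (adjusted p = 0.0862, 0.0752 and 0.0848). It was also lost when the mean left out low glucose or hypoxia (adjusted p = 0.102 and 0.126). NFIA in shCDK19 differed by -0.06 ± 0.05 (adjusted p = 0.487), and by -0.12 (adjusted p = 0.0191) without shControl hypoxia replicate 1. Of the 3 other members 1 was higher, 1 lower and 1 not called in shCDK8, and the member that was higher there was also higher in shCDK19. Both lines were set against the same shControl arrays, so their differences share that control.

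**Figure D2:**
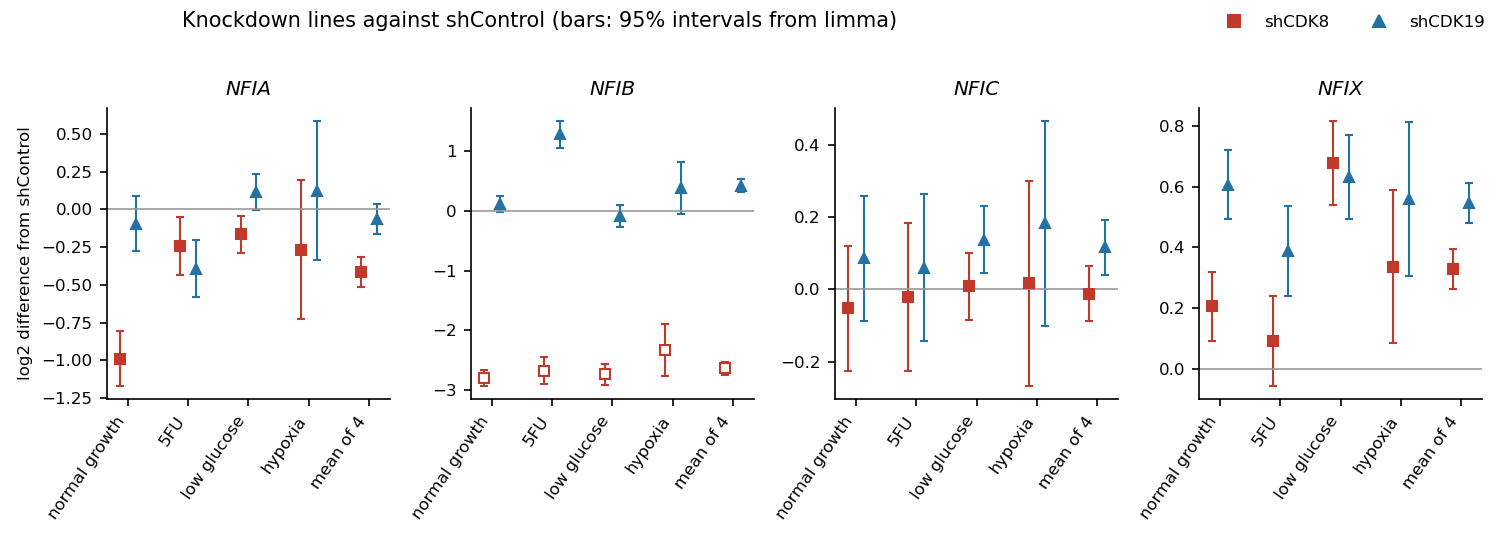
Log2 difference from shControl of each nuclear factor I gene in shCDK8 (squares) and shCDK19 (triangles) under 4 conditions and for their mean, with 95% intervals from limma; open squares mark the NFIB values the family was chosen on, and the vertical scales differ. NFIX lies above 0 in both lines for the mean (0.33 and 0.55), NFIA below 0 in shCDK8 (-0.42), and NFIC in shCDK8 at -0.01.

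The knockdown differences were not the same in all conditions. The NFIA difference in shCDK8 was smaller under 5FU than in normal growth by 0.75 ± 0.14 (SE; adjusted p = 0.000446, limma; 11.9% of genes called), in low glucose by 0.82 ± 0.12 (adjusted p = 3.54e-05; 12.8%) and in hypoxia by 0.72 ± 0.14 (adjusted p = 0.00119; 11.5%). These contrasts share the normal growth arrays. The NFIX difference in shCDK8 was larger in low glucose than in normal growth by 0.47 ± 0.08 (adjusted p = 0.000209). It was not called different under 5FU, at -0.11 ± 0.09 (adjusted p = 0.574), or in hypoxia, at 0.13 ± 0.09 (adjusted p = 0.357). In shCDK19 the NFIB difference under 5FU exceeded that in normal growth by 1.16 ± 0.14 (adjusted p = 8.7e-06; 4% of genes called). No other such contrast of a member was called in that line, where 1.79% of genes were called for low glucose and 2.08% for hypoxia. Without shControl hypoxia replicate 2, the hypoxia contrasts of NFIA and NFIB in shCDK19 passed, at 0.47 for both (adjusted p = 0.00691 and 0.0153). Without shControl hypoxia replicate 1 or 2 the NFIA hypoxia contrast in shCDK8 lay at the ends of its range, 0.47 to 0.97, and stayed called. The shCDK8 difference of NFIB was 0.46 closer to 0 in hypoxia than in normal growth, as a description. That value ran from 0.24 to 0.68 with 1 array left out, the extremes coming from leaving out either shControl hypoxia array. Stress and normal growth were separate experiments, so stress and experiment cannot be told apart here.

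The treatments were compared within shControl where the design allowed it. With 5FU against DMSO, NFIX was lower, with a difference of -0.33 ± 0.06 (adjusted p = 0.0244, limma; 11.5% of genes called), from 9.01 and 8.98 with DMSO. The call was lost when array medians were subtracted (adjusted p = 0.0998), with the ordinary variance (adjusted p = 0.0517) and without DMSO replicate 1 or either 5FU array (adjusted p = 0.0690, 0.0673 and 0.109). NFIA read 10.44 and 10.43 with DMSO and NFIC 11.39 and 11.22, and the 5FU differences of NFIA, NFIB and NFIC, at -0.20, -0.19 and -0.06, were not called. In low against high glucose NFIA was lower, with a difference of -0.39 ± 0.05 (adjusted p = 0.000356; 31.2% of genes called), from 10.26, 10.30 and 10.28 in high glucose. NFIC and NFIX were nearly level between the glucose media, at 11.37, 11.36 and 11.28 for NFIC and 8.81, 8.81 and 8.76 for NFIX in high glucose and with differences of 0.0043 ± 0.04 and -0.0029 ± 0.06, and NFIB differed by -0.15 ± 0.08 (adjusted p = 0.213).

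Hypoxia was set against normal growth in each line, a comparison in which hypoxia and experiment cannot be told apart. NFIA was lower in hypoxia in shControl, with a difference of -0.76 ± 0.10 (adjusted p = 9.87e-07, limma; 47.8% of genes called). That value was -0.51 without shControl hypoxia replicate 1 and -1.02 without replicate 2, and stayed called (adjusted p = 0.000121 and 6.64e-09). NFIA was also lower in shCDK19, at -0.55 ± 0.10 (adjusted p = 7.58e-05; 31.3%). In shCDK8, where NFIA was already low in normal growth, the difference was -0.04 ± 0.10 (adjusted p = 0.900; 9.1%). NFIC was lower in shControl, at -0.28 ± 0.07 (adjusted p = 0.00339), a call lost under quantile normalization (adjusted p = 0.123) and without shControl hypoxia replicate 2 (adjusted p = 0.0749). Its differences were -0.21 in shCDK8 (adjusted p = 0.0732) and -0.19 in shCDK19 (adjusted p = 0.0577). The shCDK8 value passed the test without shCDK8 normal-growth replicate 2 (-0.29; adjusted p = 0.0175). The shCDK19 value passed it with array medians subtracted (adjusted p = 0.0333), with genes above the median row (0.0450), with a variance trend and robust moderation (0.0423), and without shCDK19 normal-growth replicate 1 (0.0473) or shCDK19 hypoxia replicate 1 (0.0370). NFIX was not called in any line, at 0.06, 0.19 and 0.01 in shControl, shCDK8 and shCDK19, but passed the test under quantile normalization in shControl (0.20; adjusted p = 0.0247) and shCDK8 (0.24; adjusted p = 0.0288). NFIB differed by -0.22 in shControl (adjusted p = 0.0747) and 0.04 in shCDK19 (adjusted p = 0.835), and by 0.24 in shCDK8 as a description. Without shControl hypoxia replicate 2 the shControl value of NFIB was -0.44 (adjusted p = 0.00129), and without replicate 1 it was 0.0016.

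Across the 10 groups outside shCDK8, the group means of NFIB correlated with those of NFIA at Pearson -0.38, of NFIC at -0.16 and of NFIX at 0.05, and NFIC with NFIX at 0.67. NFIA correlated with NFIC at 0.55 (-0.23 without the 2 groups farthest in NFIA) and with NFIX at 0.01. Over deviations of the 35 arrays from their group means, NFIB correlated with NFIA at 0.56, NFIC at -0.20 and NFIX at 0.16. Without the 2 arrays farthest in NFIA, its value with NFIB was 0.22. All these values describe groups or arrays that share lines, experiments and controls, and they carry no p. Over all 14 groups the genes whose means followed NFIB most closely, among 18291 genes above the lowest value on at least 1 array, had Pearson correlations of 0.947 to 0.955. They were SLC38A5, an amino acid transporter, CYP4F11, a cytochrome P450, GDF11, a secreted ligand of the TGF-beta family, ARAF, a RAF kinase, and AFF4, a scaffold of the super elongation complex. The most opposed were TM4SF18, a tetraspanning membrane protein (-0.966), TNFSF4, the OX40 ligand (-0.953), SLCO3A1, an organic anion transporter (-0.936), NRG1, an ERBB ligand (-0.935), and SLC66A1LP (-0.915).

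The likeness to NFIB lay mostly in the split between shCDK8 and the other lines. SLC38A5 group means ran from 6.27 to 6.85 in shCDK8 and from 8.94 to 10.28 elsewhere, and TM4SF18 from 9.96 to 10.77 in shCDK8 and from 5.36 to 6.06 elsewhere. By rank the same 2 genes correlated with NFIB at Spearman 0.688 and -0.666, and 0 of these 10 genes were among the closest or most opposed 5 by Spearman correlation. For the other members, the closest genes were PMPCB (0.938), OTUB1 (0.902) and CARM1 (0.896) for NFIA, PAFAH1B2 (0.898), CNTLN (0.871) and CAD (0.866) for NFIC, and PELI2 (0.908), CEMIP (0.889) and TBC1D4 (0.855) for NFIX. No gene was shared between these lists.

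**Figure D3:**
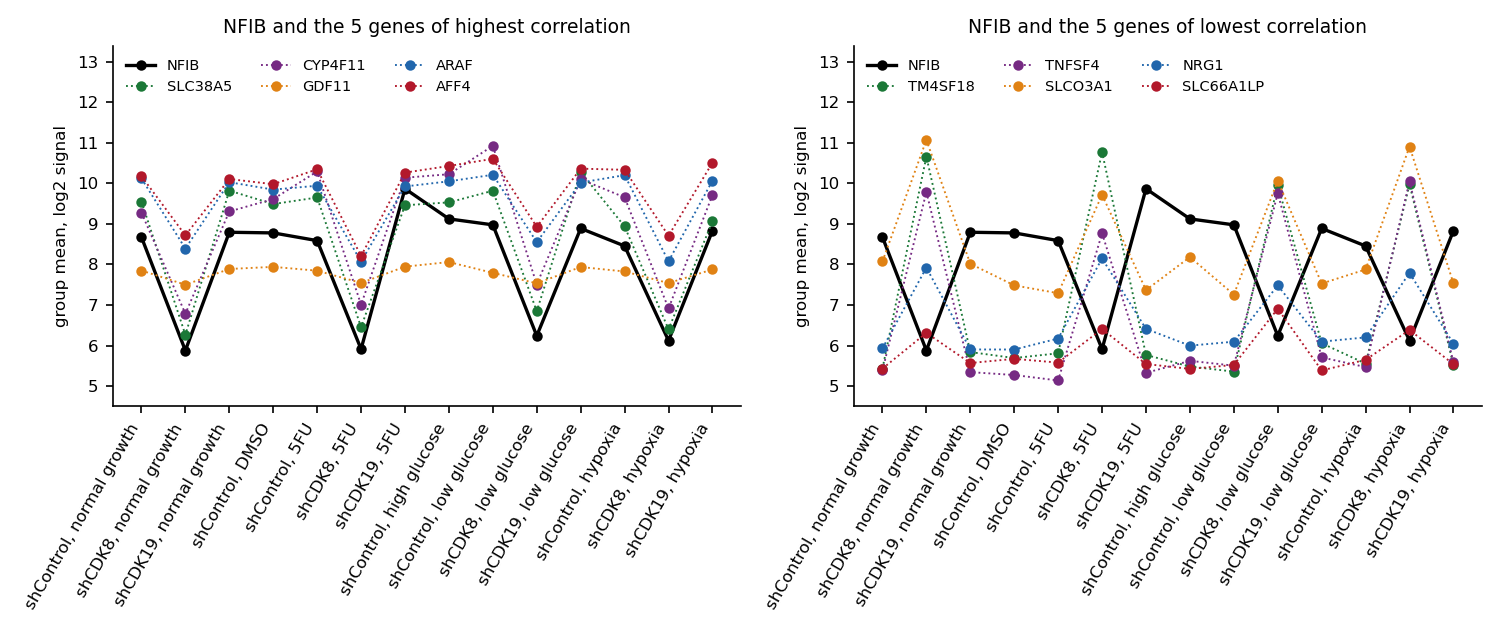
Group means (log2 signal) of NFIB (black) and of the 5 genes with the highest (left) and the 5 with the lowest (right) Pearson correlation to it over 14 groups; lines only join the groups for the eye, and levels of different genes are not comparable. SLC38A5 and the other genes on the left are low in the 4 shCDK8 groups, and TM4SF18 and the others on the right are high there.

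The genes beside each member on its chromosome, 2 tested genes on each side by RefSeq order, were examined over the mean of 4 conditions. Beside NFIB, on chromosome 9, LURAP1L had called mean differences of -0.19 ± 0.05 in shCDK8 (adjusted p = 0.00143, limma) and -0.18 ± 0.05 in shCDK19 (adjusted p = 0.00635), but its sign differed between conditions. In shCDK19 it was called lower in normal growth (-0.81) and low glucose (-0.39), whereas it read 0.29 under 5FU and 0.20 in hypoxia, neither called. In shCDK8 it was called lower in low glucose (-0.38) and read -0.24 in normal growth, 0.10 under 5FU and -0.26 in hypoxia. MPDZ, a PDZ scaffold protein, ZDHHC21, a palmitoyltransferase, and CER1, a secreted BMP antagonist, differed in shCDK8 by -0.05, 0.15 and 0.04 and were not called. NFIB itself differed by -2.63. Beside NFIA, on chromosome 1, 3 of 4 neighbours were called lower in shCDK8 over the mean, where 16.2% of all genes were called lower. They were TM2D1 (-0.33 ± 0.06), C1orf87 (-0.17 ± 0.05) and CYP2J2, an epoxygenase (-0.14 ± 0.05). Within single conditions of shCDK8 only TM2D1 in low glucose was called (-0.55). In normal growth, where NFIA itself was called lower, 0 of the 4 were called, with differences from -0.32 to -0.20. In shCDK19 none of these 4 was called. No neighbour of NFIC was called. Beside NFIX, TRMT1, a tRNA methyltransferase, was higher in shCDK8 by 0.23 ± 0.04 and in shCDK19 by 0.18 ± 0.04, and GADD45GIP1 was lower in shCDK8 (-0.16 ± 0.04), with 0.05 under 5FU. NFIC and NFIX both lie on chromosome 19.

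Genes reported to work with or under nuclear factor I were followed as 3 lists. Of the partners, 6 of 8 were measured. In shCDK8, over the mean of 4 conditions, 3 were higher and 0 lower, against 18.8% and 16.2% of all genes: FOXA1, a pioneer factor of endoderm (0.56 ± 0.06), SKI, a corepressor (0.19 ± 0.03), and TBP, the TATA-binding protein (0.19 ± 0.03). Within single conditions of shCDK8, 1 partner was called in normal growth (16.7% against 24.9% of all genes) and 2 in low glucose (33.3% against 22.3%), all higher. Under 5FU and in hypoxia 0 were called, against 3.5% and 7.3% of all genes. In shCDK19, FOXA1 was lower (-0.17 ± 0.06; adjusted p = 0.0404, limma) and no other partner was called.

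Of the 9 glial targets, 2 were higher and 2 lower in shCDK8, 44.4% against 35.1% of all genes. With array medians subtracted, 3 of the 9 were called. SLC1A3, the glial glutamate transporter, was lower in shCDK8 and higher in shCDK19. Its group means in normal growth were 8.44 in shControl, 6.52 in shCDK8 and 10.43 in shCDK19. The mean difference over 4 conditions was -1.34 ± 0.06 in shCDK8 (adjusted p = 5.42e-15, limma) and 1.62 ± 0.06 in shCDK19 (adjusted p = 3.9e-16). In shCDK8 it was called lower in each condition, at -1.92 in normal growth, -1.05 under 5FU, -1.48 in low glucose and -0.90 in hypoxia. In shCDK19 it was called higher in all conditions but 5FU, where it differed by -0.06 (adjusted p = 0.963). SOX9 and HES1, transcription factors of progenitor cells, were higher in both lines over the mean of 4 conditions. SOX9 differed by 0.75 ± 0.03 in shCDK8 and 0.84 ± 0.03 in shCDK19, and HES1 by 0.65 ± 0.07 and 0.95 ± 0.07. In hypoxia neither was called in either line, where 7.3% of all genes were called in shCDK8 and 0.228% in shCDK19. Under 5FU 1 glial target was called higher in each line, where 3.5% and 0.837% of all genes were called. EZH2, a histone methyltransferase, was lower in shCDK8 (-0.15 ± 0.05; adjusted p = 0.0264), called in normal growth (-0.46) and at 0.03 under 5FU. GFAP, S100B and FABP7, which mark astrocytes and radial glia, were not called in either line and had mean levels in shControl of 7.29, 5.73 and 5.19, on separate probe scales.

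Of the 12 other targets, 5 were higher in shCDK8 and 1 lower over the mean of 4 conditions, 50% against 35.1% of all genes. In normal growth 5 were called higher and 0 lower, 41.7% against 24.9% of all genes. Under 5FU, in low glucose and in hypoxia 1, 2 and 1 were called higher and 0 lower. These were 8.33%, 16.7% and 8.33%, against 3.5%, 22.3% and 7.3% of all genes. The target lower over the mean was thus called lower in no single condition. KLF4, an epithelial transcription factor, was higher in shCDK8 by 0.76 ± 0.05 and lower in shCDK19 (-0.22 ± 0.05). FN1, fibronectin, was higher in shCDK8 by 0.26 ± 0.03 and lower in shCDK19 (-0.61 ± 0.03). CDKN1A, the cell cycle inhibitor p21, was higher in shCDK8 by 0.26 ± 0.03, CSF1, a macrophage growth factor, by 0.23 ± 0.03, and ENO3, the muscle enolase, by 0.16 ± 0.05, and CDH2, N-cadherin, was lower (-0.14 ± 0.05). CSF1 was also higher in shCDK19, by 0.24 ± 0.03. Within single conditions of shCDK8 the sign of some means turned without a call: FN1 read -0.09 under 5FU, CDKN1A -0.12 in low glucose, and ENO3 -0.03 under 5FU and -0.16 in low glucose. CDKN1A in shCDK19, at a mean of 0.04, was called higher under 5FU (0.57) and lower in low glucose (-0.34). Over all 27 genes measured, 10 were higher and 3 lower in shCDK8, 48.1% against 35.1% of all genes, with a median difference of 0.03 against -0.03. In shCDK19, 4 were higher and 3 lower, 25.9% against 20.2%, with medians of -0.02 for both the lists and all genes. NFIA was also lower and NFIX higher in shCDK8, and the part of any member in these differences was not tested.

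**Figure D4:**
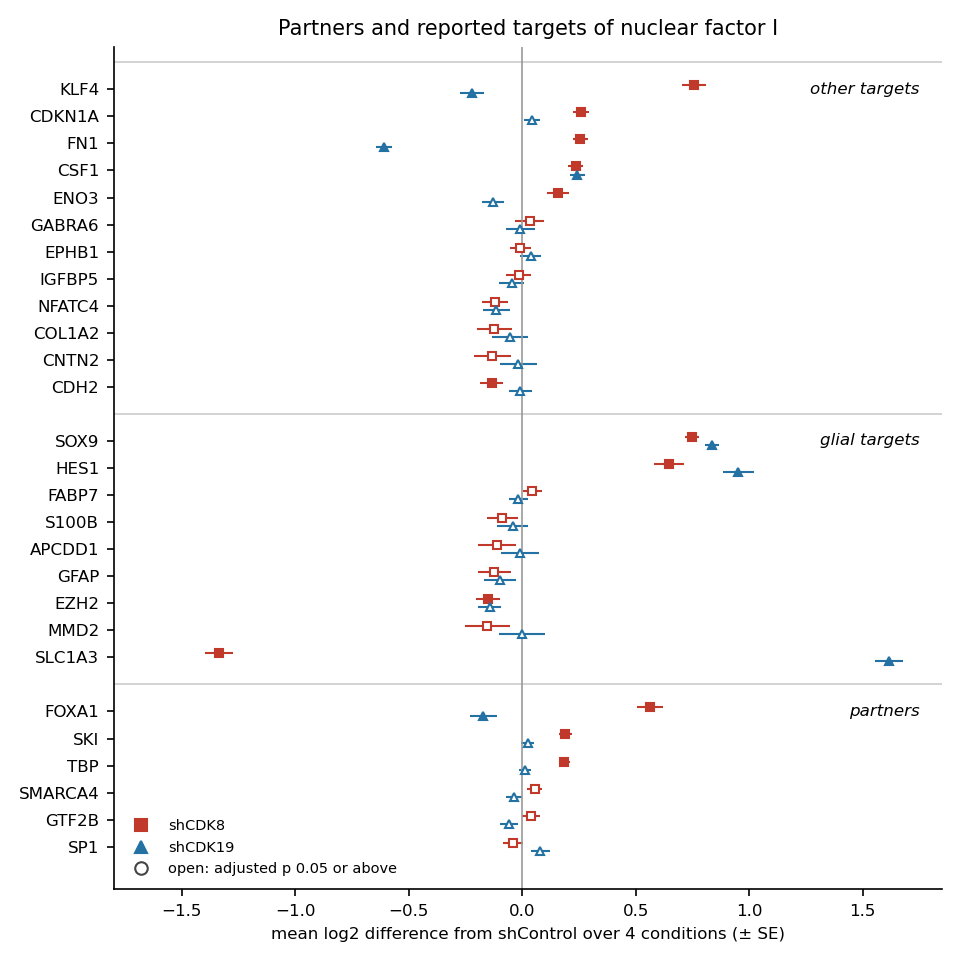
Mean log2 difference from shControl over 4 conditions (± SE) of 27 genes reported as partners or targets of nuclear factor I, in shCDK8 (squares) and shCDK19 (triangles); filled symbols passed an adjusted p of 0.05 in limma and open ones did not. SLC1A3 lies at -1.34 in shCDK8 and 1.62 in shCDK19, while SOX9 and HES1 are above 0 in both lines.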

How the data were processed

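Total RNA of HCT116 cells in 14 groups was measured on 35 Affymetrix HuGene 1.0 ST arrays, and the authors deposited 1 table of log2 values for 32321 rows, bounded at 20 and 20000 on the linear scale. Partek is named in the submitters' processing notes, and no source used here gives the background correction, the normalization or the origin of the bounds. The arrays did not share 1 median: array medians ran from 7.14 to 7.39 and 75th percentiles from 8.96 to 9.25. Samples were grouped by their titles. Of the rows, 19158 had 1 symbol, 1388 several and 11775 none in the platform annotation, and rows with several or none were left out of the tests. The row with the highest mean stood for each of 18404 genes. Differences were fitted with limma 3.58.1 in R 4.3.3 (lmFit and eBayes, two-sided, Benjamini-Hochberg over all genes) within each experiment, and over all arrays for contrasts that span experiments. The fit was run on simulated data with independent normal values on each array and set shifts in shCDK19. Deviations shared between arrays were not simulated. The number of arrays limits the precision.

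The members and the gene lists were chosen with earlier results of these data known. The genes named were the 4 members, their nearest neighbours and closest genes by correlation, up to 4 called genes of each list by size in shCDK8 (the 6 of the other targets that were called are all given, 2 of them outside this rule), SLC1A3 by condition, GFAP, S100B and FABP7 (outside the rule, chosen after their values were seen), and CDK8 and CDK19. Python 3.11.15 with pandas 2.3.3, scipy 1.17.1 and matplotlib 3.10.9 was used for the descriptions and plots. The alternatives were array medians, quantile normalization, a filter on low rows, all rows, the mean of a gene's rows, other variance estimates, a replicate block and leaving out arrays or conditions.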

Additional observations from a re-analysis of the deposited data

Results flagged for a closer look

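The NFIA difference between shCDK8 and shControl changed with the condition by a test of the change itself: against normal growth it was higher by 0.75 ± 0.14 (SE) under 5FU, by 0.82 ± 0.12 in low glucose and by 0.72 ± 0.14 in hypoxia (limma adjusted p = 0.000446, 3.54e-05 and 0.00119). These contrasts share the normal growth arrays, where shControl had the highest NFIA mean of the 14 groups. In the order normal growth, 5FU, low glucose and hypoxia, shControl means were 10.67, 10.23, 9.89 and 9.91. The shCDK8 means were 9.69, 9.99, 9.72 and 9.64. The part of each line in these changes was not tested. The NFIX difference between shCDK8 and shControl was higher in low glucose than in normal growth by 0.47 ± 0.08 (limma adjusted p = 0.000209). The NFIB difference between shCDK19 and shControl was higher under 5FU than in normal growth by 1.16 ± 0.14 (limma adjusted p = 8.7e-06). All these conditions were separate experiments.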

How the results depend on the processing

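Over the mean of 4 conditions, the NFIA and NFIX calls in shCDK8 and the NFIB and NFIX calls in shCDK19 held under array medians, quantile normalization, both row filters, the mean of a gene's rows, both other variance estimates and with any 1 array left out, with NFIA between -0.48 and -0.35, NFIX between 0.31 and 0.35, NFIB between 0.37 and 0.48 and NFIX between 0.53 and 0.56 in the last case. Without the 5FU condition NFIB in shCDK19 was 0.14 and no longer called, and NFIA in shCDK19 was 0.049. NFIC in shCDK19 lost its call under quantile normalization (0.090), without low glucose (0.11), without hypoxia (0.095) and without 3 of 20 arrays (range 0.091 to 0.14), and NFIA in shCDK19 ranged from -0.12 to 0.0017. NFIC in shCDK8 was 0.0016 without normal growth and ranged from -0.038 to 0.014. The causes were not tested.

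Under other scalings signs turned only for differences near 0 that were not called. With array medians subtracted, NFIX was 0.012 for low against high glucose, -0.024 and -0.018 for hypoxia against normal growth in shControl and shCDK19, and 0.0060 for the change of the shCDK19 difference in hypoxia. With quantile normalization, NFIC was -0.045 in shCDK8 hypoxia and -0.017 for the glucose media, NFIX was 0.029 there, and the changes of the NFIC difference were -0.021 (5FU) and -0.027 (hypoxia) in shCDK8 and -0.0070 (hypoxia) in shCDK19.

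With 1 array left out, NFIC in shCDK8 ranged from -0.12 to 0.020 in normal growth, -0.095 to 0.054 under 5FU, -0.010 to 0.030 in low glucose and -0.087 to 0.12 in hypoxia, and in shCDK19 under 5FU from -0.014 to 0.13. NFIB in shCDK19 ranged from -0.15 to 0.025 in low glucose, NFIA in shCDK19 from -0.13 to 0.38 in hypoxia, and NFIX between the knockdown lines in low glucose from -0.023 to 0.10. Treatment differences ranged for NFIC from -0.14 to 0.029 (5FU) and -0.026 to 0.023 (glucose), and for NFIX from -0.030 to 0.023 (glucose). Hypoxia against normal growth ranged for NFIB from -0.44 to 0.0016 in shControl and -0.016 to 0.071 in shCDK19, for NFIA in shCDK8 from -0.13 to 0.0092, and for NFIX in shCDK19 from -0.047 to 0.071. Changes of the NFIC difference ranged in shCDK8 from -0.044 to 0.11 (5FU), -0.012 to 0.13 (low glucose) and -0.035 to 0.17 (hypoxia), and in shCDK19 from -0.10 to 0.048 (5FU) and -0.0079 to 0.20 (hypoxia). In shCDK19 those of NFIX ranged from -0.030 to 0.094 (low glucose) and -0.11 to 0.012 (hypoxia), and that of NFIA from -0.032 to 0.47 (hypoxia).

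Whether replicate numbers pair the arrays was not settled. Same-numbered arrays of an experiment had deviations from their group means that correlated at -0.62 to 0.41, and differently numbered ones at -0.67 to 0.73. The 0.73 was between shCDK8 replicate 1 and shCDK19 replicate 3 of normal growth. In the 5FU and hypoxia experiments, with 2 arrays a group, same- and different-numbered values mirror each other and cannot decide it. With the replicate number as a block, NFIA in shCDK8 was -0.42, and no member's call over the mean of 4 conditions changed. The block moved the genes called in shCDK19 normal growth from 1301 to 781, under 5FU from 645 to 355 (shCDK8), 154 to 53 (shCDK19) and 946 to 479 (shCDK8 against shCDK19), and in hypoxia from 1343 to 312, 42 to 1 and 2273 to 764. It could not be fitted for hypoxia against normal growth.

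Counts of genes called under 5FU and hypoxia, with 2 arrays a group, moved most. In the order above they were 1713, 1067, 2221, 6392, 2641 and 5925 in 1 fit of all arrays, and 238, 20, 287, 334, 3 and 765 with the ordinary variance. For 5FU against DMSO these settings gave 3526 and 849 in place of 2109. A variance trend with robust moderation gave 1192, 577 and 1649 under 5FU and 212 for shCDK19 in hypoxia, and genes above the median row gave 995, 469, 1479 and 160. All rows of the table gave 2 for shCDK19 in hypoxia, and quantile normalization gave 271 for shCDK19 under 5FU. With array medians subtracted, shCDK19 gave 781 in normal growth and 122 in hypoxia, its changes with condition gave 354, 146 and 112 against 736, 329 and 383, and hypoxia against normal growth in shCDK8 gave 856 against 1674. With 1 array left out, counts in hypoxia ran from 2 to 8548 in shCDK8 and 0 to 4320 in shCDK19.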
